A study of Mus musculus with 2 samples.

Results

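Endothelial cells (ECs) of the E12.5 mouse fetal liver were examined through 10 genes. Cldn5, Cdh5, Kdr, Pecam1, Flt1 and Tie1 are general endothelial genes, and Stab1, Stab2, Lyve1 and Fcgr2b are genes of the liver sinusoid. The genes were taken by symbol, and all 10 were found, each once, among the 27998 genes of both libraries. Cells came from 1 wild-type C57BL/6 liver, dissociated and sorted by FACS to remove debris, dead cells and doublets, and were run through droplet scRNA-seq as 2 technical replicate libraries. Every kept cell carried a cell type from the authors' deposited table, which held 20 ECs in library 1 and 26 in library 2 among 10537 cells. With 1 liver there were no biological replicates, so no test between samples was possible and no p-value is given. The spread between libraries is technical and includes the draw of different cells from the same liver.

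ECs line the blood vessels. In the fetal liver, the main site of blood formation before the bone marrow takes over, many vessels are sinusoids, wide and leaky capillaries in close contact with hepatoblasts and developing blood cells. Sinusoidal ECs differ from other ECs by scavenger receptors that clear waste molecules from the blood, and resident macrophages of the sinusoids, the Kupffer cells, carry some of the same receptors. ECs and blood cells also share part of their gene expression, and several adhesion molecules and receptors used to mark endothelium are found on stem cells, platelets and leukocytes.

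Levels are given as UMIs of a gene per 1000000 UMIs of a cell type (CPM), where a UMI (unique molecular identifier) tags 1 captured RNA molecule. ECs held 262042 UMIs in library 1 and 566779 in library 2, with a median of 13054.5 and 15744.5 UMIs per cell. UMIs per EC ranged from 3342 to 60583. The kept cells as a whole held 51969226 and 62738015 UMIs. Intervals are exact 95% Poisson intervals for CPM and exact Clopper-Pearson intervals for shares of cells, and both cover counting error only. Cell types are named as in the deposited table: Mo/KC for monocytes and Kupffer cells, HPSC for hematopoietic stem and progenitor cells, Mk for megakaryocytes, G for granulocytes, Hepa for hepatoblasts, Ery for erythroid-committed progenitors, Eryb for erythroblasts and EryP for a further erythroid cluster of 288 cells, spelled so. Since the authors clustered the cells on gene expression, the levels of these genes across cell types are a description and not a test of the names. The libraries shared 31 barcodes of kept cells, none of them an EC. Kept cells reached down to 504 UMIs in library 1 but only to 4387 in library 2.

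Free RNA enters every droplet and gives stray UMIs. It was measured in barcodes with 1 to 50 UMIs, where the 10 genes lay between 0.507 and 17.2 CPM (library 1) or 0.510 and 9.18 CPM (library 2). Erythroblasts, which should lack endothelial RNA, gave the same kind of background inside cells. Cldn5 had a UMI in 10 of 3820 Eryb cells of library 1 (0.262%) and in 10 of 3612 of library 2 (0.277%), at median depths of 5613 and 8982.5 UMIs. None of the 10 genes was above 0.412 CPM in Eryb in either library.

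Among the general endothelial genes, Cldn5, the tight junction protein claudin 5, was the most abundant in ECs. Its level was 854.8 CPM in library 1 (interval 746.5 to 974.4) and 824.0 CPM in the other (750.9 to 902.2). A UMI was found in 19 of 20 and 26 of 26 ECs, with a median of 12 and a highest count of 57 UMIs in a cell. The next cell type lay at 1.04 CPM in library 1 (EryP) and 12.8 CPM in library 2 (Mk), so that 93.5% of all Cldn5 UMIs in kept cells were in ECs. The paper marks its EC cluster by Cldn5, so the high values of this gene in ECs are no independent result.

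Kdr encodes the main receptor for the vascular growth factor VEGF-A, and Cdh5 encodes VE-cadherin of endothelial adherens junctions. In libraries 1 and 2, Kdr stood at 343.5 and 368.8 CPM, and Cdh5 at 396.9 and 308.8 CPM. The intervals of the pair overlapped in both libraries, so neither was measurably the higher. Cdh5 had a UMI in 45 of 46 ECs and Kdr in 40 of 46. ECs held 82.3% of the Cdh5 UMIs and 76.7% of the Kdr UMIs.

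Flt1, a further VEGF receptor that binds the ligand tightly and signals weakly, Pecam1, the adhesion molecule CD31, and Tie1, an angiopoietin pathway receptor, were lower. Flt1 gave 187.0 and 165.8 CPM in the libraries, in order. Pecam1 was at 221.3 and 155.3 CPM, with intervals that overlapped those of Flt1 in both libraries. Tie1 was the lowest of the 6, at 125.9 CPM (86.7 to 177) and 75.9 CPM (54.9 to 102), and only 27 of 46 ECs showed a UMI. Only 29.6% of all Tie1 UMIs and 20.4% of all Pecam1 UMIs were in ECs, against 82.2% for Flt1.

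Among the sinusoid genes, Lyve1, a hyaluronan receptor of sinusoidal and lymphatic ECs, was the highest of all 10 genes. Its levels were 1210 and 1067 CPM, with intervals of 1080 to 1350 and 984 to 1156, and 45 of 46 ECs had a UMI. Stab2, a scavenger receptor that takes up hyaluronan, reached 515.2 and 370.5 CPM and was found in 44 of 46 ECs. Its intervals, 431.9 to 609.8 and 322.1 to 424.2, did not overlap between the libraries of the same liver. They leave out the spread between cells, so a difference between libraries cannot be read from them. Stab1, a related scavenger receptor, was lower at 167.9 and 137.6 CPM, in 35 of 46 ECs. ECs held 94.6% of the Lyve1 UMIs, 90.3% of the Stab2 UMIs and 50% of the Stab1 UMIs.

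Fcgr2b, an inhibitory receptor for IgG that is used as a marker of adult sinusoidal ECs, went against its place in the sinusoid group. It was absent from the 20 ECs of library 1, where 3 UMIs would have corresponded to 11.4 CPM. In library 2 it had 3 UMIs in 3 of 26 ECs (5.29 CPM, 1.09 to 15.5). Of its 432 UMIs in kept cells, 332 were in G cells, with levels of 101.0 and 74.4 CPM. It was thus near the limit of detection in ECs, and the sinusoid genes named below are Stab1, Stab2 and Lyve1 unless Fcgr2b is named.

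**Figure D1:**
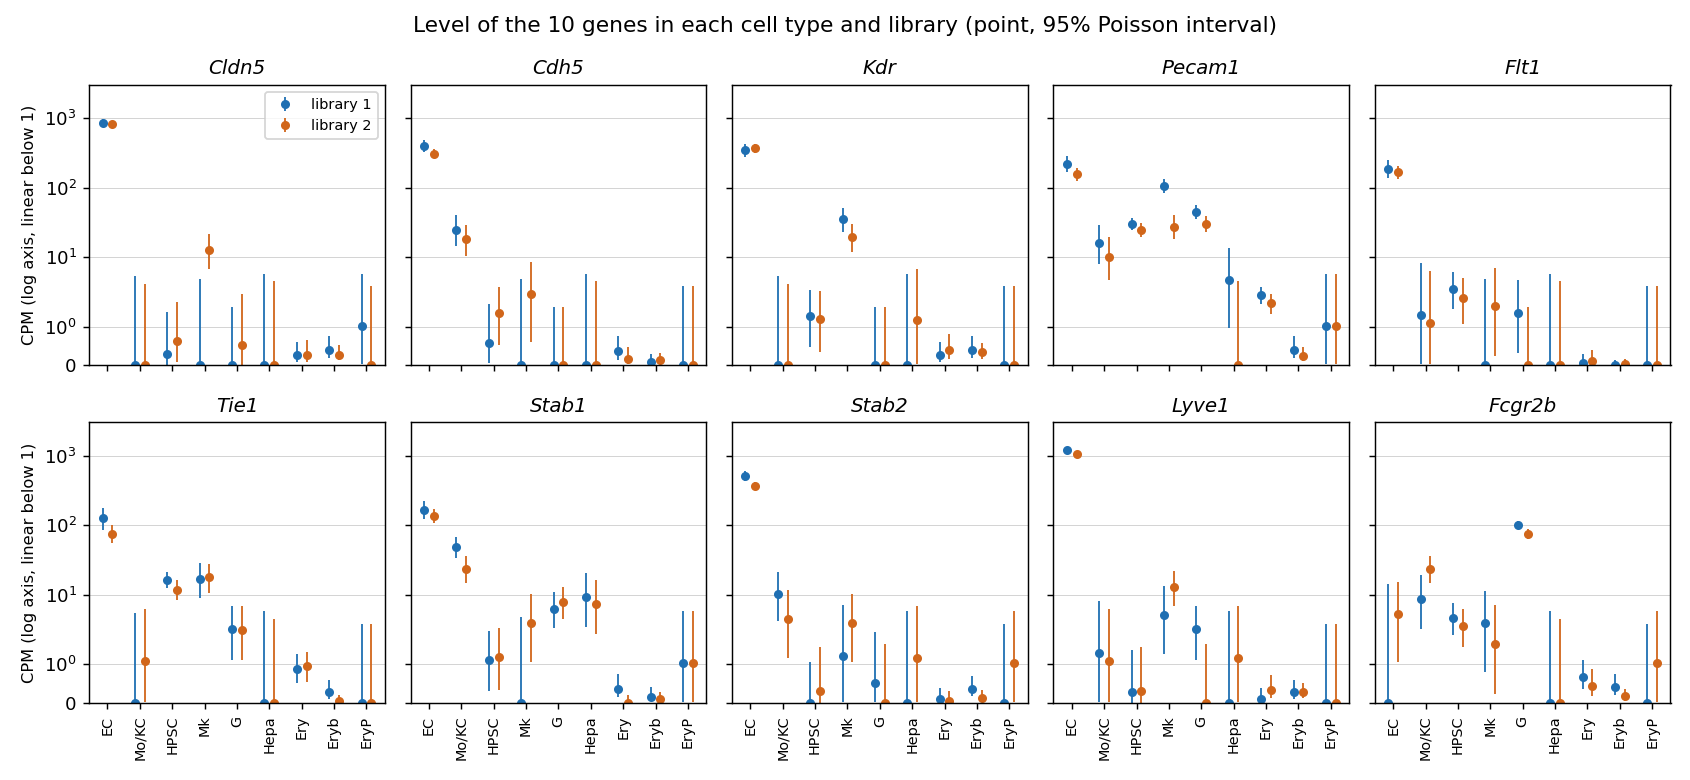
Level in CPM (y, log axis that is linear below 1) of each of the 10 genes in the 9 cell types (x), 1 point per library with its 95% Poisson interval. In 9 of the panels the highest level is in EC, whereas Fcgr2b peaks in G at 101.0 and 74.4 CPM. Outside ECs, Pecam1, Tie1, Stab1, Cdh5 and Kdr exceed 10 CPM in some type in both libraries, and Cldn5, Lyve1 and Stab2 in 1 library each.

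Because deep cells show a gene more readily, shares were also computed as the mean over all ways of thinning each cell to 3600 UMIs. Of the 46 ECs, 45 were deep enough. The thinned share was 91.2% for Lyve1 and 90.8% for Cldn5, against 97.8% of all ECs for each without thinning. It was 73.4% for Stab2, 72.6% for Cdh5, 64.1% for Kdr, 49.7% for Pecam1, 42.5% for Flt1, 39.8% for Stab1 and 25.3% for Tie1. Fcgr2b remained at 2.14%. In Eryb, the highest thinned share of any of the 10 genes was 0.168% in library 1 (Kdr) and 0.148% in library 2 (Kdr).

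A gene was called highest in ECs when its EC level was at least 5 times that of each of the 8 other types in both libraries, over genes with at least 20 UMIs in ECs. Of 4889 genes tested, 3.52% were called. Of the 9 members tested, 6 were called, namely Cldn5, Cdh5, Kdr, Flt1, Stab2 and Lyve1. Cldn5 is the paper's marker of the EC cluster, so its call was not independent of the naming. The members were chosen as endothelial genes, so the count of 6 is a description and not a finding about them. In library 1, the next type lay furthest below for Cldn5 (819 times lower, on 1 UMI in EryP) and closest for Kdr (9.80 times, Mk). In library 2, it lay furthest below for Lyve1 (83.3 times, Mk) and closest for Cdh5 (17.1 times, Mo/KC). Pecam1, Tie1 and Stab1 were also highest in ECs in both libraries but missed the call. Their next types lay 2.08 and 5.16 times lower for Pecam1, 7.46 and 4.27 times for Tie1, and 3.45 and 5.80 times for Stab1. Fcgr2b had too few EC UMIs to be tested.

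**Figure D2:**
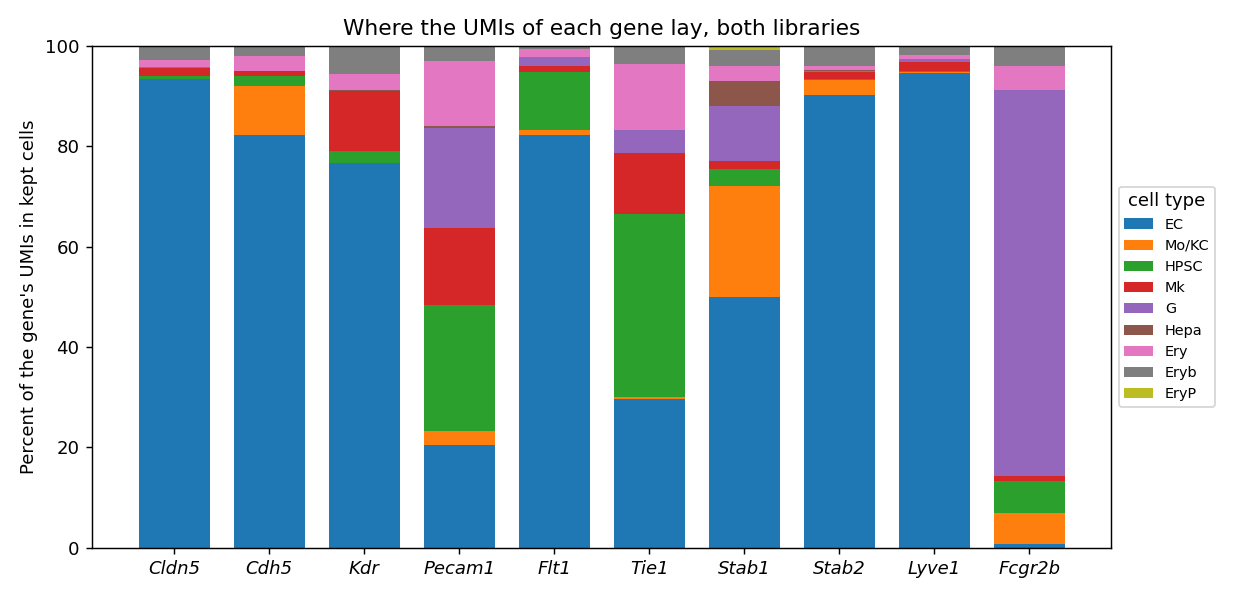
Percent of the UMIs of each gene in kept cells (y) that lay in each of the 9 cell types, both libraries summed, 1 bar per gene. ECs are 46 of 10537 cells and held 94.6% of Lyve1 and 93.5% of Cldn5 UMIs, but 20.4% of Pecam1, 29.6% of Tie1 and 0.694% of Fcgr2b UMIs.

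To see which sequences lie at the start of these genes, promoter windows from 250 bases before to 50 bases after the start site were taken from RefSeq (GRCm38.p6), which gave a window for 7 of the 10 genes, namely Cldn5, Kdr, Flt1, Tie1, Stab1, Stab2 and Fcgr2b. Endothelial genes are known to be bound by ETS family factors such as Ets1, Erg and Fli1, so the ETS core AGGAAG was searched on both strands. It was present in 4 of 7 windows (Flt1, Tie1, Stab1 and Stab2) and in 35.4% of all 32851 promoter windows of the same length. Capitals mark the core, written as CTTCCT where it lies on the opposite strand. The windows with the core are shown, and Cldn5 is shown as the most abundant general gene without it.
Flt1 promoter (chr5:147725962-147726261, minus strand): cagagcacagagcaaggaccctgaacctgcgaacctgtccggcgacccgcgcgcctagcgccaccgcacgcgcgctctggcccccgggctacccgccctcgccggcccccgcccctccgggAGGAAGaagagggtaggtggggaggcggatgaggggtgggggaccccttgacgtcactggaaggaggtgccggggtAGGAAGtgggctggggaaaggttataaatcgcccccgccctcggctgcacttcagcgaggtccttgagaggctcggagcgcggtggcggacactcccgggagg
Tie1 promoter (chr4:118489800-118490099, minus strand): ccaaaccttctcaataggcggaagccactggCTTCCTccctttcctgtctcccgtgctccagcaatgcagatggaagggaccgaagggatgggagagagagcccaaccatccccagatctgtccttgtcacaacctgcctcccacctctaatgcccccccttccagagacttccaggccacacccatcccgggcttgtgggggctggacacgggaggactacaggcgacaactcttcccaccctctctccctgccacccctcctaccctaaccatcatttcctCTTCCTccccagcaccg
Stab1 promoter (chr14:31168592-31168891, minus strand): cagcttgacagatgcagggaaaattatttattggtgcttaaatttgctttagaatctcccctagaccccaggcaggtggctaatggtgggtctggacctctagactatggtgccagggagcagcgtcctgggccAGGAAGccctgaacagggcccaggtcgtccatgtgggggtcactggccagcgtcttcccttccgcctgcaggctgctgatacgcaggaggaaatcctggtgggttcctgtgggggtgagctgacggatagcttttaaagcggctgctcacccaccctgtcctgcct
Stab2 promoter (chr10:87007893-87008192, minus strand): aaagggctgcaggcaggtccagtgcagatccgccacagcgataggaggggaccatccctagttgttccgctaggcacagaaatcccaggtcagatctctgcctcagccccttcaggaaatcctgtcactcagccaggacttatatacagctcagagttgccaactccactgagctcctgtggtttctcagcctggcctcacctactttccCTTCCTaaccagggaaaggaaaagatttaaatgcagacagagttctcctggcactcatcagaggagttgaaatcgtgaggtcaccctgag
Cldn5 promoter (chr16:18776597-18776896, plus strand): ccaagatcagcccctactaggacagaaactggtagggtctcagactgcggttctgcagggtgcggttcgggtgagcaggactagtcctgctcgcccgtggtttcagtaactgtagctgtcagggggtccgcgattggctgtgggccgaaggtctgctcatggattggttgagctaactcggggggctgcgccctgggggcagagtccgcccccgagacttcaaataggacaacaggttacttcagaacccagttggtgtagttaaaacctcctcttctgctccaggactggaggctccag
Counted from the start site, the cores of Flt1 began at positions -129 and -53, that of Stab1 at -116, that of Stab2 at -40 and those of Tie1 at -219 and 34. A GATA core (AGATAA or TGATAA) was in 0 of the 7 windows and in 18.6% of all windows, and a SOX core (AACAAT) in 0 of 7 and 10.7%. A TATA box (TATAAA) was found in Flt1 alone, beginning at position -31, and in 13.6% of all windows. AGGAAG was present in windows of genes called highest in ECs (Flt1, Stab2) and of genes that were not (Tie1, Stab1). It was absent from Cldn5 and Kdr, which were called, but these windows may hold other forms of the ETS core. These letters are a description of the windows and not of binding.

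General endothelial and sinusoid genes were found in the same cells. Every one of the 46 ECs (100%, interval 92.3 to 100) had at least 1 UMI of both groups, and 45 of 46 had at least 2 UMIs of each. ECs held a median of 32.5 general and 23.5 sinusoid UMIs, so most would show both groups even if the levels were unrelated. Each EC showed between 4 and 10 of the 10 genes, with a median of 8 in both libraries. No EC lacked both Stab2 and Lyve1 (interval for counting error only, 0 to 7.71%). Stab2 and Lyve1 were both found in 43 of 46 ECs, and Cldn5 and Cdh5 in 44. Singly, Stab2 was found in 44 ECs and Lyve1, Cldn5 and Cdh5 in 45 each. The joint counts follow closely from these and do not measure a relation between the genes. All 6 general genes were seen in 23 ECs, and all 9 genes other than Fcgr2b in 21 ECs, whose depth began at 5195 UMIs. The 2 ECs without Stab2 held 4440 and 7872 UMIs, the EC without Lyve1 held 5514, the EC without Cdh5 held 5002 and the EC without Cldn5 held 9586. These cells lay below the median depth of their library, and each still showed at least 4 of the 10 genes.

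**Figure D3:**
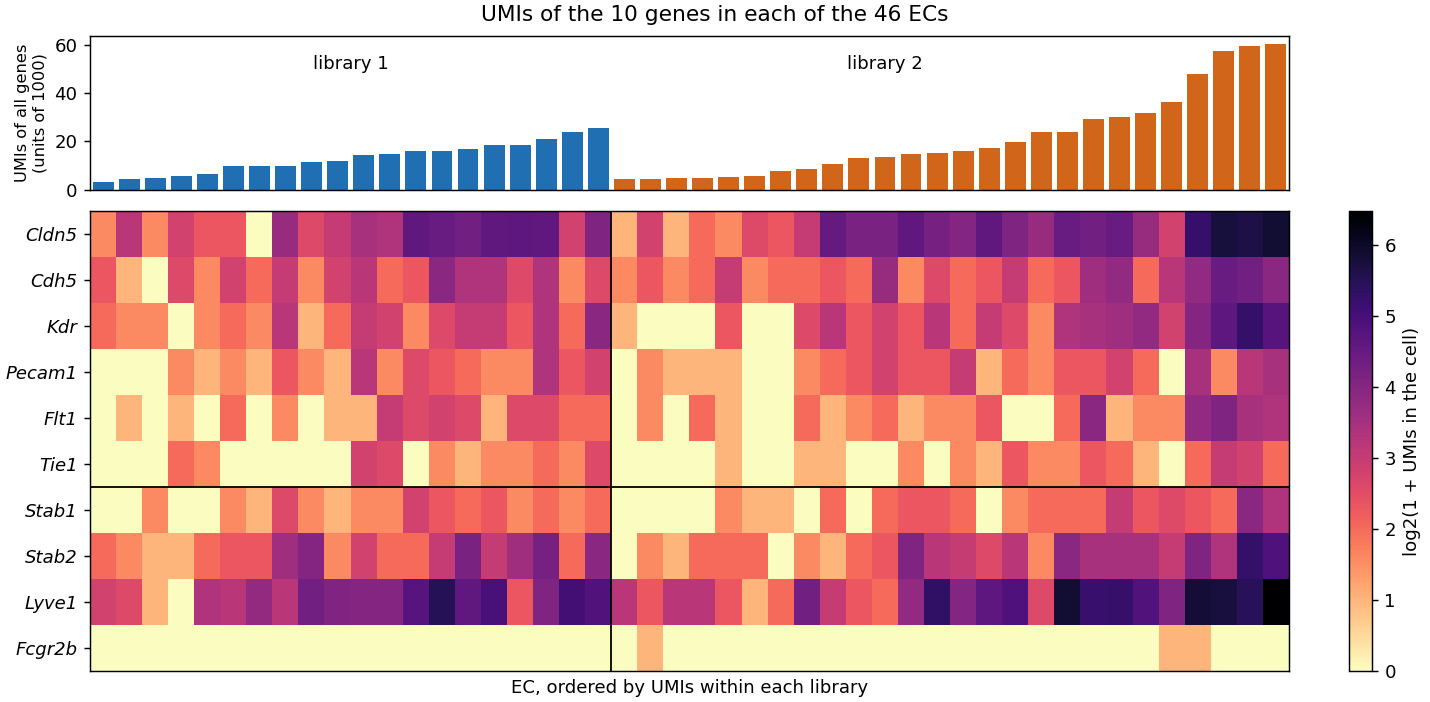
UMIs of all genes in each EC (upper panel, axis in units of 1000) and log2(1 + UMIs) of the 10 genes (lower panel, color) in the 46 ECs, ordered by depth within library 1 (left, 20 cells) and library 2 (right, 26 cells). Cldn5 and Lyve1 are filled in 45 of 46 columns each, the pale fields lie mostly in shallow cells, and Fcgr2b is filled in 3.

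The amounts of both groups were only weakly related from cell to cell. UMIs of the 6 general genes made up 6.05 to 37.2 per 10000 UMIs of a cell (median 21.3), and those of the 4 sinusoid genes 1.81 to 34.1 (median 16.8). Across cells, Spearman's rho between both levels was 0.25 in library 1 (20 cells; Pearson's r 0.15) and 0.14 in library 2 (26 cells; r 0.17). Without the 2 cells farthest from the median general level, r was 0.034 and 0.20. These coefficients describe cells of 1 liver that share a library, and the counts behind them are small. Leaving Lyve1 out of the sinusoid level gave a rho of 0.25 in library 1 and 0.41 in library 2. Undivided UMIs of both groups gave a rho of 0.80 over all 46 ECs, against 0.17 for the levels. The undivided numbers are not corrected for the depth of a cell, and the part of depth in this value was not tested. The cell with the lowest sinusoid level, 1.81 per 10000, was the EC of library 1 without Lyve1.

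Gene by gene, the relations were small within and between the groups. The median rho over the 15 pairs of general genes was 0.23, over the 3 pairs of sinusoid genes 0.17, and over the 18 mixed pairs 0.076, all over 46 cells. The mixed pairs had a median of 0.089 in library 1 alone and 0.13 in library 2 alone. Over all 46 cells, the highest pairs were Cldn5 with Flt1 (rho 0.45) and Cldn5 with Pecam1 (0.42). Among mixed pairs, Kdr with Stab2 had a rho of 0.48 in library 1 but 0.13 in library 2, and Kdr with Stab1 had 0.091 and 0.43. Lyve1 and Stab1 had a rho of -0.22, with -0.0023 in library 1 and -0.34 in library 2. Other than Cldn5, Lyve1 and Fcgr2b, the genes had a median of 1 to 4.5 UMIs per EC, so that these values rest on small counts.

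**Figure D4:**
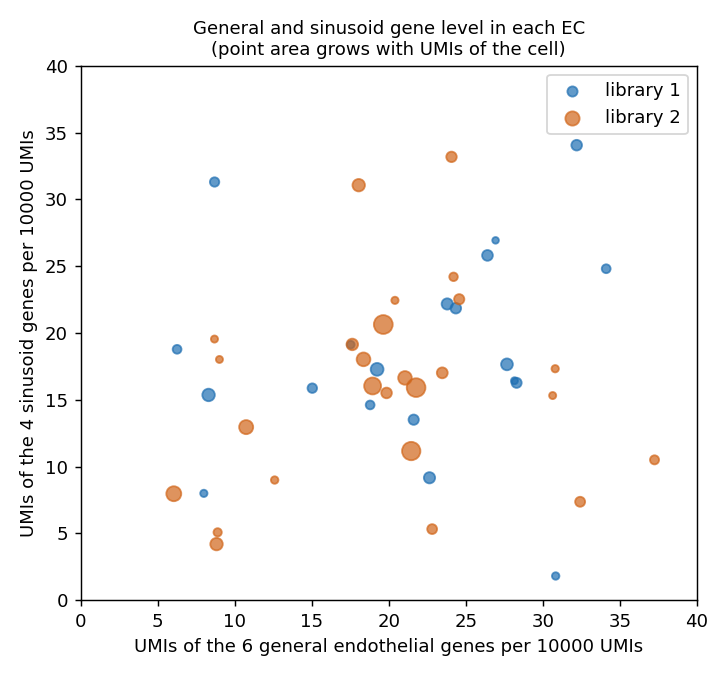
UMIs of the 6 general endothelial genes (x) against UMIs of the 4 sinusoid genes (y), each per 10000 UMIs of the cell, for the 46 ECs by library, with point area growing with depth. All cells lie above 0 on both axes, and the cloud has little slope (rho 0.25 and 0.14).

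Further endothelial genes were examined in lists that did not include the 10. The lists were chosen as endothelial genes with earlier results of these data known, so their counts are a description and not a finding. A gene was tested only with at least 20 UMIs in ECs, the group in which it had to be high to be called. Of 16 receptors, 13 had enough UMIs and 10 were called highest in ECs, against the 3.52% of all genes tested. They included Ramp2, a coreceptor for adrenomedullin, at 721 and 783 CPM, and Gpr182, a receptor of sinusoidal and lymphatic ECs, at 710 and 704 CPM. Eng, a coreceptor of the TGF-beta family, was at 691 and 529 CPM, and Nrp1, a VEGF coreceptor, at 298 and 303 CPM. Of 14 junction and surface genes, 13 were tested and 8 called, with Plvap of endothelial fenestrae at 645 and 524 CPM and Icam2 at 530 and 478 CPM. Ligands gave 2 calls among 5 tested of 14, Bmp2 at 153 and 148 CPM and the Notch ligand Dll4 at 38.2 and 56.5 CPM. Bmp6 had no UMI in any EC. The median EC level over each list, genes below 20 UMIs included, was 80.8 CPM for receptors, 126 CPM for junction and surface genes and 4.83 CPM for ligands. The median was 0 over all 27877 genes with a unique symbol and 61.5 CPM over the 4889 genes tested, which leave out those below 20 UMIs.

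Of 16 transcription factors, 13 were tested and 5 called highest in ECs, which were Ets1 at 187 and 125 CPM, Sox17 at 145 and 111 CPM, Nr2f2 of venous ECs at 126 and 150 CPM, Sox18 at 114 and 90.0 CPM and Gata4, required in sinusoidal ECs, at 107 and 91.7 CPM. Of 14 further sinusoid and scavenger genes, 10 were tested and 5 called. Among these, Ehd3, an endocytic membrane protein, stood at 1011 and 776 CPM, Oit3 at 946 and 635 CPM, the mannose receptor Mrc1 at 172 and 127 CPM, Cd36, a fatty acid and lipoprotein receptor, at 164 and 108 CPM, and the nuclease Dnase1l3 at 34.3 and 33.5 CPM. Cd209b had no UMI. Arterial genes gave 3 calls among 3 tested of 7 (Gja4, Sox17 and Dll4), and Bmx had none. Venous genes gave 2 calls among 3 tested of 4 (Nr2f2 and Aplnr). Of these arterial and venous calls, all but Gja4 were also counted in the lists above. Gja4, a gap junction gene of arteries, was held by 5 ECs in each library (45.8 and 98.8 CPM), whereas Nr2f2 was found in 14 of 20 and 21 of 26.

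Erythroid markers were abundant in ECs but far lower than in Eryb and EryP, and most defining markers of other cell types were few or absent. The 6 erythroid markers summed to 28953 and 21230 CPM in ECs, against 365847 and 590937 CPM in Eryb and 152787 and 344469 CPM in EryP. The sums were 21460 and 47939 CPM in Ery, 15417 and 27704 CPM in HPSC and 11035 and 36826 CPM in Mo/KC. Of the monocyte and Kupffer cell list, Fcgr1, Adgre1, Vsig4 and Ptprc, the last found in leukocytes generally, had no UMI in the 46 ECs. Neither had Gp9, Gp1bb and Itgb3 of megakaryocytes, or Col1a1, Pdgfrb and Pdgfra of mesenchymal cells. The summed level of the 11 monocyte and Kupffer cell markers was 126 CPM in library 1, where 1 EC held all 12 C1qc UMIs, and 8.82 CPM in library 2. The 7 megakaryocyte markers summed to 84.0 and 35.3 CPM. The 10 mesenchymal markers summed to 0 in library 1 and 129 CPM in library 2, with all 18 Acta2 and all 14 Col3a1 UMIs in 1 EC. The 7 stem and progenitor markers summed to 168 and 171 CPM, of which Cd34, also an endothelial gene, made up most, against 664 and 619 CPM in HPSC. The 5 hepatoblast markers summed to 15.3 and 175 CPM, against 50321 and 36266 CPM in Hepa. The part of these RNAs in the levels of the 10 genes was not tested.

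A gene was called shared with another cell type when its level there was at least 10% of that in ECs and the lower limit of its UMIs lay above the number that free RNA would give at 20% of the UMIs of these cells, in both libraries. Most genes are shared by this measure, and the 9 members tested mostly were not. Because the members were chosen as endothelial genes, these low counts are a description and not a finding about them. In Mo/KC, 84.6% of the 4889 genes tested were called shared, against 1 of 9 members (Stab1). In HPSC, the share was 89.8%, against 2 of 9 members (Pecam1 and Tie1). In Mk, it was 89%, against the same 2 members. In G, it was 86.7%, against 1 member (Pecam1). None of the 9 was called in Hepa (81.1% of all genes), Ery (86.8%), Eryb (68.5%) or EryP (10.3%). Some listed genes called highest in ECs were also called shared: Nr2f2 and Ehd3 with Mk, Nrp1 with Mo/KC, Ecscr with HPSC and Icam2 with G. Of the 13 endothelial transcription factors tested, 5 were shared with Mo/KC, 5 with HPSC, 6 with Mk and 5 with G. The cells named Mk also held mesenchymal markers, which summed to 303 and 347 CPM there. Sharing with Mk is therefore not necessarily sharing with megakaryocytes.

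Mo/KC cells, 56 in library 1 and 58 in library 2, carried a distinct selection of these genes. Stab1 stood at 48.6 CPM (33.5 to 68.3) and 23.7 CPM (14.7 to 36.3), which was 29.0% and 17.2% of its EC level. Cdh5 stood at 25.0 and 18.1 CPM, or 6.31% and 5.85% of its EC level, and Stab2 at 10.3 and 4.52 CPM. Pecam1 stood at 16.2 and 10.2 CPM, or 7.32% and 6.55% of its EC level. Cldn5 and Kdr, in contrast, had 0 UMIs in all 114 cells, where 3 UMIs would have corresponded to 4.42 and 3.39 CPM, and Lyve1 had 1 UMI in each library. The genes stood to each other in another ratio than in ECs. Cldn5 had 2.15 and 2.67 UMIs per Cdh5 UMI in ECs but 0 in Mo/KC, where Cdh5 had 17 and 16 UMIs. Stab1 had 0.423 and 0.446 UMIs per Cdh5 UMI in ECs and 1.94 and 1.31 in Mo/KC.

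Within Mo/KC, Cdh5, Stab1 and Stab2 lay mostly in other cells than Fcgr2b. The cells were divided, after their values had been seen, by the summed UMIs of the complement genes C1qa, C1qb and C1qc, which mark macrophages. The 45 cells with at least 5 C1q UMIs held all 33 Cdh5 UMIs, all 11 Stab2 UMIs and 50 of 54 Stab1 UMIs. Cdh5 stood at 77.4 and 66.2 CPM in these cells, in 15 of 45, and Stab1 at 150 and 70.3 CPM, in 20 of 45. Pecam1 did not follow this division, with 8 UMIs in these cells and 12 in the others, and it was seen together with Fcgr2b in 2 Mo/KC cells. Cdh5 and Stab1 were seen together in 8 Mo/KC cells. The Kupffer cell genes Timd4 (310 CPM over both libraries) and Cd5l (212 CPM) lay in these cells alone. The other 69 cells held all 27 Fcgr2b UMIs, in 18 cells, and 518 UMIs of the monocyte gene Ly6c2 (470 CPM), against 1 UMI (2.17 CPM) in the C1q cells. The monocyte gene Ccr2 was less clearly divided, at 167 CPM in the other cells and still at 104 CPM in the C1q cells. Pf4, a platelet chemokine, lay mostly in the C1q cells, at 347 CPM against 9.07 CPM in the others. The cells with fewer C1q UMIs were deeper, with a median of 16254 UMIs against 9372. The part of depth in this division was not tested. Only 6 cells lay near the boundary, with 3 to 7 C1q UMIs.

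HPSC, 213 and 208 cells, shared Pecam1 and Tie1. For Pecam1 the levels were 29.9 and 24.6 CPM (intervals 24.4 to 36.2 and 19.4 to 30.8), and for Tie1 16.5 and 11.8 CPM (intervals up to 21.4 and 16.3). These levels were 13.5% and 15.9% of the EC level for Pecam1, and 13.1% and 15.6% for Tie1. Because HPSC far outnumber ECs, they held 25.2% of all Pecam1 UMIs and 36.6% of all Tie1 UMIs, more than the ECs did. In library 2 alone the order was the other way, with 25% of Pecam1 and 29.8% of Tie1 UMIs in HPSC and 28.6% and 34.7% in ECs. Pecam1 was seen in 148 of 421 cells and Tie1 in 73, with both in 25 cells. This joint count is close to what unrelated genes with these single counts would give. After thinning, 9.88% of HPSC had Pecam1 and 5.76% had Tie1, compared with at most 0.131% and 0.121% of Eryb in a library. Flt1 was at 3.48 and 2.56 CPM, 1.86% and 1.54% of its EC level, and 7 of its 20 UMIs were in 1 cell. Cdh5, Kdr, Stab1, Stab2, Cldn5 and Lyve1 stayed below 2 CPM in both libraries.

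Esam and Emcn were higher in the HPSC with a Tie1 UMI than in those without. Esam, an adhesion molecule of ECs and stem cells, was at 48.5 and 67.7 CPM in the 44 and 29 cells with a Tie1 UMI, with lower limits of 33.2 and 44.2 CPM. The cells without had 10.4 and 16.4 CPM, with upper limits of 14.9 and 22.0 CPM. Emcn, the sialomucin endomucin, was at 42.5 and 62.5 CPM against 15.4 and 15.7 CPM. The intervals of both genes lay apart in both libraries. They leave out the spread between cells, so a difference beyond counting error cannot be read from them. Ecscr, a regulator of endothelial cell migration, was at 44.0 and 75.6 CPM against 29.0 and 34.3 CPM, and its intervals overlapped in library 1. The same held for Eng, at 63.7 and 78.2 CPM against 38.7 and 36.8 CPM. Pecam1 differed little, at 33.4 and 31.3 CPM against 29.0 and 23.7 CPM. Cells with Tie1 were not the deeper ones, with medians of 14548 and 13000 UMIs against 16399 and 15415. This division was made after the values had been seen, and the cells of 1 liver are not replicates.

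**Figure D5:**
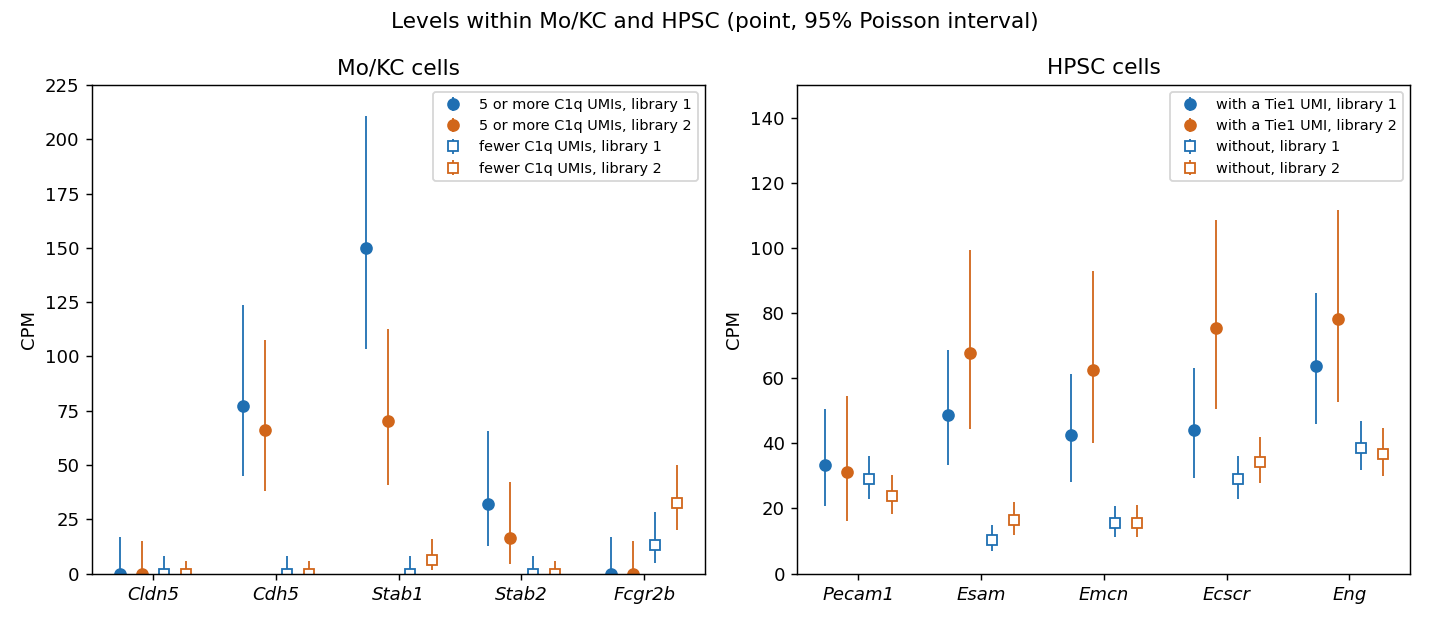
CPM (y) with 95% Poisson intervals, by library. Left, Mo/KC cells with at least 5 C1q UMIs (filled) or fewer (open): Cdh5 at 77.4 and 66.2 CPM lies in the filled group alone and Fcgr2b in the open group alone. Right, HPSC with a Tie1 UMI (filled) or without (open): Esam and Emcn are higher in the filled group in both libraries.

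Mk, 79 and 56 cells, shared Pecam1 and Tie1 and held some Kdr. Tie1 stood at 16.9 and 17.7 CPM, or 13.4% and 23.4% of its EC level. Without cells over 2 times the median UMIs of their type, Tie1 was no longer called shared with Mk. Kdr stood at 35.1 CPM (23.1 to 51.0) and 19.7 CPM (12.0 to 30.5), or 10.2% and 5.35% of its EC level, in 29 of 135 cells. Kdr and Tie1 were seen together in 12 Mk cells. Pecam1, also a platelet adhesion molecule, gave 106.5 CPM in library 1 but 27.6 CPM in the other, with intervals of 84.7 to 132 and 18.3 to 39.9 that did not overlap. These intervals leave out the spread between cells. The libraries also differed in the depth of these cells, with a median of 5699 UMIs in library 1 and 16944.5 in library 2.

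The Mk cells were not uniform. Divided after the values had been seen, 75 cells had at least 10 UMIs of Pf4 and 60 had fewer, with 12 cells at 5 to 20. In the cells with Pf4, Pecam1 was at 73.0 and 31.4 CPM, Tie1 at 23.7 and 20.9 CPM and Kdr at 31.6 and 22.4 CPM, and Cldn5 and Cdh5 had 0 UMIs. Over all Mk cells, Kdr stood at 35.1 and 19.7 CPM. The cells with few Pf4 UMIs thus held Kdr too, above the Pf4 cells in library 1 and below them in library 2. In the cells with few Pf4 UMIs, Pecam1 was at 171 and 20.3 CPM, Tie1 at 3.80 and 11.6 CPM, and the mesenchymal gene Col3a1 was at 247 and 214 CPM, against 0 UMIs in the cells with Pf4. A single Mk cell of library 2, with 57131 UMIs and 1 Pf4 UMI, held all 13 Cldn5 UMIs, all 3 Cdh5 UMIs, 4 of the 5 Stab2 UMIs and 6 of the 17 Lyve1 UMIs of Mk. Without it, Pecam1 and Tie1 were still called shared and Cldn5 had 0 UMIs in 134 cells.

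G cells, 157 and 130, held Pecam1 at 44.9 CPM (35.9 to 55.6) and 30.1 CPM (22.8 to 39.0), 20.3% and 19.4% of its EC level. Fcgr2b was highest there in both libraries, 11.4 times the next type in library 1 and 3.14 times in library 2, where that type was Mo/KC. Fcgr2b was seen in 147 of 287 cells, and Pecam1 and Fcgr2b together in 63. Divided after the values had been seen, G cells with more UMIs of early than of late granule genes held Pecam1 at 57.7 and 39.8 CPM, against 22.1 CPM (12.4 to 36.5) and 12.0 CPM (5.19 to 23.7) in the others. Fcgr2b stood at 115 and 72.4 CPM in the former and 76.7 and 78.1 CPM in the latter. Its intervals overlapped in both libraries, with 96.3 to 135 and 57.3 to 101 in library 1. Stab1 was at 6.34 and 7.91 CPM in G, below 10% of its EC level.

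The genes with the most similar pattern were sought by Pearson's r of log2(CPM + 10) over the 18 points that 9 cell types in 2 libraries give, among 2491 genes with at least 50 UMIs in ECs. The points share libraries and depth, and any gene confined to ECs reaches a high r. Cldn5 and Lyve1 had the same 3 genes, Bace2, Akr1b8 and Bmp2 (r of 0.997 or higher). Stab2 was nearest to Fabp4 (0.997), Cd36 (0.994) and Colec12 (0.993). Cdh5 was nearest to Mrc1 (0.994), Colec12 (0.991) and Cd36 (0.990). Flt1 was nearest to She, Robo4 and Sox18 (all 0.997), and Kdr to Akap12 (0.996), Gata4 (0.995) and Map1b (0.995). The nearest genes of Stab1, Tie1, Pecam1 and Fcgr2b had a lower r. Genes with fewer than 50 UMIs in ECs were not compared, so genes mainly of other cell types may be missing from these neighbors. Stab1 was nearest to Maf (0.961), Mrc1 (0.959) and Nrp1 (0.956), Tie1 to Scarf1 (0.976), Bok (0.976) and Fam43a (0.975), and Pecam1 to Ica1 (0.970), Fam43a (0.924) and Cmtm3 (0.911). Fcgr2b was nearest to Gsr (0.873), Ap3s1 (0.873) and Anxa3 (0.806).

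In the GENCODE vM21 annotation of GRCm38, the 10 genes lie on 9 chromosomes. Kdr (chr5:75932827-75978458) and Flt1 (chr5:147561604-147726011) share chromosome 5. Stab1 (chr14:31139013-31168641) and Stab2 (chr10:86841198-87008025) lie on different chromosomes, as do Cldn5 (chr16:18776847-18778262), Cdh5 (chr8:104101625-104144511), Pecam1 (chr11:106654217-106750628), Tie1 (chr4:118471191-118490061), Lyve1 (chr7:110850607-110863239) and Fcgr2b (chr1:170958617-170976547).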

How the data were processed

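The 2 libraries are technical replicates of a droplet scRNA-seq experiment on 1 E12.5 liver per the methods, although the series description speaks of 2 suspensions. According to the methods and the processing notes, the authors used bcl2fastq (2), Cell Ranger (2.1.1), the mm10 genome and Seurat (3.2.0). The matrix header of library 1 names software version 3.0.0. The authors deposited raw UMI counts per gene and barcode, once over every barcode and once over called cells. A further table gives each kept cell a cluster and a type. The other deposited columns hold names and carry no unit, and 0 columns of sample values were left unused. Cells were assigned to libraries by the suffix of their names.

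From the counts, UMIs were summed per cell type and library and scaled to CPM, with exact Poisson 95% intervals. Shares of cells were given Clopper-Pearson intervals, and thinning to 3600 UMIs (the 10th percentile of cells in the shallowest type, rounded down) was computed exactly as a mean over all draws. For a count of 0 the limit was set at 3 counts. PCR duplicates had been collapsed by UMI, and intervals cover counting error only. Genes were tested with at least 20 UMIs over ECs. Free RNA came from barcodes with 1 to 50 UMIs. All 10 genes are named. Of other lists, genes called highest in ECs or without any UMI in ECs were named, at most 6 a list by EC level, apart from genes said to be chosen after their values were seen and genes of other cell types given beside a result. Doublets had been removed by sorting before encapsulation, no caller was run, and cells over 2 times the median UMIs of their type were left out as an alternative. The genes and lists were chosen with earlier results of these data known. The calls and intervals were tested on simulated counts. Alternatives were each library alone, filters on cells, other thresholds for the calls, other depths of thinning and other free RNA shares. Python 3.11.15, numpy 2.4.6, scipy 1.17.1, pandas 2.3.3 and matplotlib 3.10.9 were used.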

Additional observations from a re-analysis of the deposited data

Results flagged for a closer look

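RNA of the 10 genes was also found in barcodes that had not been called as cells. Of 6258 such barcodes with at least 500 UMIs in library 2, 22 (0.352%, Clopper-Pearson interval 0.220 to 0.532) showed at least 3 of the 10 genes, with a median of 2545.5 and a highest value of 4385 UMIs. Kept cells of library 2 began at 4387 UMIs, whereas those of library 1 began at 504. In library 1, 0 of 241 such barcodes did (interval up to 1.52%). Thinned to the median depth of the uncalled barcodes of library 2, 1098 UMIs, 0% of Eryb and 54.5% of ECs would show at least 3 of the genes. The 22 barcodes were deeper than this, so 54.5% is not a share at their depth. In library 1, thinned to 1654 UMIs, the shares were 0% of Eryb and 82.7% of ECs. The values were flagged because the barcodes lie outside the cells used above.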

How the results depend on the processing

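The number of the 9 tested members called shared with another cell type depended on the threshold. The share over all genes tested is given above for the main thresholds only, so the counts below have no such share beside them. At 20% of the EC level, 0 members were shared with Mo/KC, 0 with HPSC, 0 with Mk and 0 with G. At 5%, 3 were shared with Mo/KC (Cdh5, Pecam1 and Stab1) and 3 with Mk (Kdr, Pecam1 and Tie1), with HPSC and G unchanged. Without cells over 2 times the median UMIs of their type, which left out 29 of 79 Mk cells of library 1, 1 member (Pecam1) was shared with Mk. The number of members called highest in ECs was 5 at 10 times the next type (without Kdr), 9 at 2 times, and 7 to 8 with 1 library alone. Library 2 alone added Pecam1 and Stab1, and library 1 alone added Tie1. Members shared with Mk numbered 2 to 3 with 1 library alone, Kdr being added in library 1. Uncalled barcodes numbered 51 with at least 2 genes, and with 1 library alone they numbered 0 to 22, all in library 2. The share of ECs with both gene groups stayed at 100% under 4 of 6 alternatives, and was 97.8% with at least 2 UMIs of each group and 97.3% after thinning. Of the alternative EC levels, 46 moved by less than their spread and 4 moved further (Cldn5, Cdh5 and Kdr). Thinned shares moved further in 31 cases, mostly with depth, and did not in 39.

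No paired analysis was possible because both libraries come from 1 liver and 1 group. Depth limits what can be said of single ECs, and a missing gene in a cell is not an absent one. Tie1 had a UMI in 25.3% of ECs at 3600 UMIs and in 42.6% at the doubled depth. The doubled depth leaves out the shallower ECs, so these shares are not over the same cells. With 46 ECs from 1 liver, differences between embryos cannot be seen. The suspension was sorted, so shares of cell types in the tissue are not given.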

Other observations

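Among the ECs, a few cells held genes of other cell types together with the 10 genes. In library 1, 1 of 20 ECs held all 5 C1qa and all 12 C1qc UMIs. In library 2, 2 of 26 ECs held all 67 Dlk1 UMIs, a gene of hepatoblasts and mesenchymal cells, and 1 EC held all 18 Acta2 UMIs. These cells were named after their values had been seen.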
